A study of Mus musculus with 2 samples.

Results

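The miRNA genes described here carry a number from 3000 to just below 6000 in their mouse symbol and were read by small RNA sequencing of newborn lung. They were chosen by a rule on the name that does not use their reads, with earlier results of these data known. Mir3072, Mir3074-1, Mir3074-2 and Mir3107 were left out. The rule gave 120 of the 1973 gene rows of the deposited tables. The samples form 1 group of 2 libraries of the mouse strain B6NCrl at 0 days after birth, with no treatment and no other condition. Each library came from 2 lungs of a single pup, pup 1 for replicate 1 and pup 3 for replicate 2, of pregnancy 1. Sex was not collected, and both libraries carry the same donor record in the labels, so that the separation of the pups rests on the labels alone. Whole lung holds many cell types, and fewer cells of a type cannot be told apart from less RNA per cell.

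A miRNA is cut from a hairpin precursor, usually by Drosha in the nucleus and then by Dicer in the cytoplasm. One arm of the hairpin is loaded into an Argonaute protein, where bases 2 to 8 of the miRNA, the seed, choose the target messages. Mirtrons bypass Drosha, because their hairpin is an intron released by splicing. Numbers in miRNA names are given roughly in order of registration, so low numbers belong mostly to abundant and conserved miRNAs found early. High numbers were assigned later, largely to hairpins found by deep sequencing, and some late entries have since been questioned as fragments of other RNAs.

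A row holds the reads of both arms of a hairpin, and the sequences below are RNAs that such rows can count. They belong to the highest members with a sequence, Mir3071, Mir3102, Mir3105, Mir3061 and Mir5113, to Mir3066, which differed between the libraries, and to Mir3064, whose 5p arm shares its seed with another member. RefSeq on GRCm38.p6 gave a mature sequence for 111 of the 120 members and for 14 of the 15 with at least 10 reads in each library. Mir5099 is named only. Capitals mark the seed, and each sequence runs 5′ to 3′. Mir136, an older miRNA, is included because its hairpin lies on the opposite strand of the Mir3071 hairpin, with mature RNAs at overlapping positions.
mmu-miR-3071-5p: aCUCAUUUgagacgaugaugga
mmu-miR-3071-3p: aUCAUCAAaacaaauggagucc
mmu-miR-136-5p: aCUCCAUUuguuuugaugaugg
mmu-miR-136-3p: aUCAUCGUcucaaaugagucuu
mmu-miR-3102-5p: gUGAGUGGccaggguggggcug
mmu-miR-3102-5p.2-5p: gGUGGUGCaggcaggagagcc
mmu-miR-3102-3p.2-3p: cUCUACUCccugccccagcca
mmu-miR-3102-3p: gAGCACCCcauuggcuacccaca
mmu-miR-3105-5p: aGAGCAAGcccguaagcagcgu
mmu-miR-3105-3p: aCUGCUUAugagcuugcacucc
mmu-miR-3061-5p: cAGUGGGCcgugaaagguagcc
mmu-miR-3061-3p: cUACCUUUgauaguccacugcc
mmu-miR-5113: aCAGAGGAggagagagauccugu
mmu-miR-3066-5p: uUGGUUGCuguagauuaaguag
mmu-miR-3066-3p: cACUUAAUagaccgcaaccugc
mmu-miR-3064-5p: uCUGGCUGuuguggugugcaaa

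Seeds shared with an older miRNA were counted among the members. The same share was not computed for other miRNAs, so the counts are a description only. Over the 173 mature sequences of the 111 members, 8 shared all of bases 2 to 8 with a miRNA numbered below 3000 or a let-7. Among the 28 mature sequences of the 14 members with at least 10 reads in each library, 1 did, namely mmu-miR-3102-5p, whose seed UGAGUGG is also that of mmu-miR-702-5p. Mir5124b shares GGCUCAG with mmu-miR-24-3p and Mir5129 shares AUGUGCC with mmu-miR-455-5p. Mir5124b had no read in either library, and Mir5129 had 9 and 2 reads in replicates 1 and 2. The seed CUGGCUG of mmu-miR-3064-5p is found in another member, as mmu-miR-3085-3p, whose gene had 0 and 1 read.

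Replicate 1 had 4532902 own-strand reads on miRNA genes and replicate 2 had 5426081, so that 1 read equals 0.221 and 0.184 CPM, the unit of levels below (counts scaled to a library of 1000000 such reads). Means are given ± SD over the 2 libraries. The lung label was checked against markers: the endothelial miRNA Mir126a stood at 160640 and 160658 CPM, the summed epithelial markers at 24738 and 25617, and the multiciliated ones at 21913 and 22077. The heart markers summed to 398 and 428 CPM, the leukocyte ones to 1445 and 1558, and the pancreatic ones to 1.32 and 0.921. Those of smooth muscle and fibroblasts summed to 71724 and 75552 CPM and those of red cells to 1292 and 1131. The liver miRNA Mir122 was also read, at 45.9 and 53.1 CPM. All 3 neuronal Mir124a genes stood at 0, a value that reads mapped to several places can also give. Such reads, which have no gene row, made up 34.6% and 36.7% of all reads.

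The 120 members together held 3125 reads in replicate 1 and 3524 in replicate 2. Their summed level was 669 ± 28.2 CPM (SD, n = 2). The 95% interval by the exact Clopper-Pearson method ran from 665 to 714 CPM in replicate 1 and from 628 to 671 in replicate 2. This is 0.0669% ± 0.0028 of the reads on miRNA genes. At least 10 reads in each library, the level called detected here, were reached by 15 members, or 12.5%, beside 15.6% of all rows. A read in either library was seen for 79 members, or 65.8%, beside 33.8% of all rows. The median over all 120 members was 0.202 CPM, beside 0 over all 1973 rows. Among detected rows the members were the lower, with a median of 4.75 CPM in the 15 members, beside 192 in the 293 other detected rows. With no read in either library, 41 members remained, for which a floor of 3 reads stands at 0.662 CPM in replicate 1 and 0.553 in replicate 2. The upper limit of the exact two-sided 95% interval is 0.814 and 0.68 CPM. Both hold only where the reads have a single position. Intervals and floors cover counting error only.

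Detection fell with the number in the name, as a description with no test. Of the 465 rows numbered below 1000, 254 were detected, or 54.6%, and of the 82 rows numbered from 1000 to below 3000, 14 were, or 17.1%. Above the present range, 13 of 373 rows numbered 6000 and above were detected, or 3.49%. The share with no read at all did not follow that order: it was 30.1%, 43.9%, 34.2% and 53.1% for these groups in rising order of number, with the members in the third place. The 922 rows with no miRNA number, of which 891 had no read, lower the background over all rows.

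**Figure D1:**
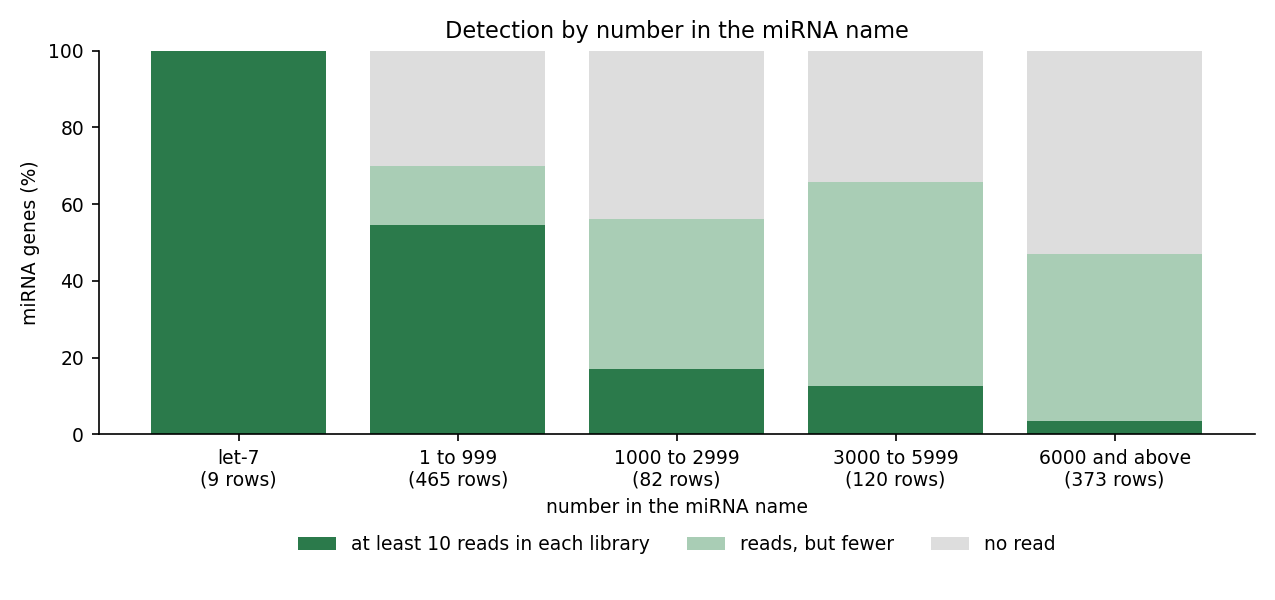
Share of miRNA gene rows (%, vertical axis) that were detected (10 reads or more in both libraries), read less often, or not read, by the number in the name (horizontal axis, with the rows in each group). The members show 12.5% detected and 34.2% with no read, and most of their column is made of genes with few reads.

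The row named Mir3071 held most of the reads, and its identity is not settled by the sources used here. It had 2087 and 2506 own-strand reads and stood at 460 and 462 CPM in replicates 1 and 2, or 461 ± 1.01 CPM. That is 109th of all 1973 rows and 68.9% ± 3.06 of the reads of the members. The libraries were nearly equal, and their intervals of 441 to 481 and 444 to 480 CPM overlapped. The other miRNAs nearest to it in level were Mir467e, Mir181b-2, Mir25, Mir188 and Mir221, at means from 456 to 479 CPM.

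Mir3071 lies at chr12:109595318-109595397 on the minus strand of GRCm38, in an exon of the paternally expressed retrotransposon-derived gene Rtl1 and within the imprinted Dlk1-Dio3 region. The Mir136 hairpin, at chr12:109595327-109595388, lies on the plus strand of the same place. The deposited row bears version 1 of the identifier ENSMUSG00000070129, whereas GENCODE M21, from which the name was taken, gives version 2. The number of this identifier lies between those of the older miRNAs Mir485 and Mir328, and below that of every other member. No other member changed version, although the older neighbours Mir337, Mir540 and Mir127 did and hold nearly all their reads on the own strand. The gene model and strand by which the reads were counted are therefore uncertain, and the row may hold the reads of Mir136, which has no row of its own under its M21 identifier. In this row 0 and 2 reads lay on the opposite strand. For comparison, the rows that M21 names Mir142b and Mir497b, also set against an older miRNA of the other strand, have 0 own-strand reads and 7040 and 13790 opposite-strand reads in replicate 1. The row named Mir299b, which changed from version 1 to version 2 as Mir3071 did, has 9 and 11 own-strand reads and 6966 and 8368 opposite-strand reads. The sums that this row dominates are therefore given without it as well.

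The older miRNAs around it are processed from the maternal transcript on the plus strand. Mir127 stood at 7316 and 6159 CPM in replicates 1 and 2, Mir431 at 1930 and 2089, and Mir434 at 1113 and 1400. The row named Mir3071 lay within the range of these neighbours, below Mir434 and above Mir433 at 419 and 402 CPM. Other members in this stretch were far lower. Mir3070a had 4 and 6 reads and Mir3070b 0 and 1, and these paralogs share a 20-base stretch, so that reads fitting both are uncounted.

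**Figure D2:**
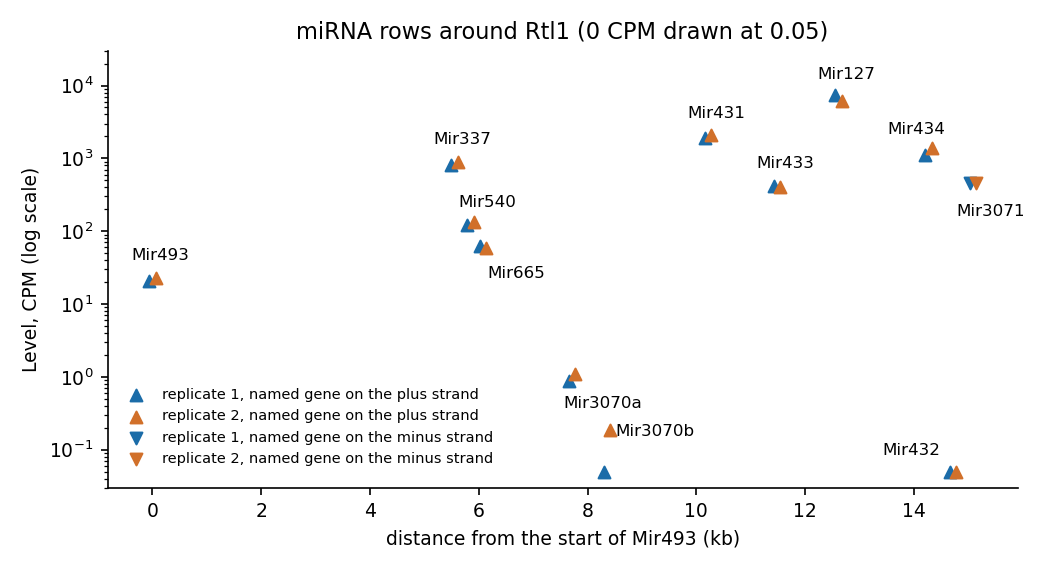
Level of each miRNA row around Rtl1 (CPM, log scale, vertical axis) against distance from the start of Mir493 (kb, horizontal axis), in replicates 1 and 2, with 0 drawn at 0.05 CPM and the strand of the gene as named in GENCODE M21. The row named Mir3071, near 461 CPM, is the only one named on the minus strand, and Mir3070a and Mir3070b lie near 1 CPM or lower.

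Without that row the other 119 members summed to 229 and 188 CPM in replicates 1 and 2, or 208 ± 29.3 CPM, and 14 of them were detected, or 11.8%. The highest was Mir5099, at chr12:36816205-36816278 on the plus strand, the only detected member outside any gene on its strand. It had 310 and 307 reads, at 68.4 and 56.6 CPM. Replicate 1 was the higher, though the intervals of 61.0 to 76.4 and 50.4 to 63.3 CPM overlapped. Mir5099 was 182nd of all rows, and with Mir3102 it held 50.3% of the reads of these 119 members.

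Mir3102 was the highest member with the position of a mirtron. Its hairpin, at chr7:100882306-100882409 on the minus strand, has both ends within 5 bases of the ends of an intron of Arhgef17. The hairpin also overlaps an exon of a transcript of the gene, at least in part. Mir3102 had 219 and 198 reads, at 48.3 and 36.5 CPM in replicates 1 and 2, again higher in replicate 1. RefSeq lists 4 mature RNAs for it that lie end to end along each arm: on the minus strand miR-3102-5p ends at base 100882388 and miR-3102-5p.2-5p begins at 100882387, and the 3p pair meets at 100882329 and 100882330. The row sums all 4, so these data do not say which was read. Mir3547, in an intron of Baiap3, was the other member that fits an intron at both ends, and it had 2 and 0 reads. Of the 13 members that meet an intron end on 1 side, 2 were detected, Mir3097 and Mir3064, a share not computed for other miRNA rows.

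Mir3105 was the highest member lying wholly in introns of its host, Shank2, which encodes a scaffold protein of excitatory synapses. At chr7:144009254-144009338 on the plus strand, it had 65 and 45 reads, at 14.3 and 8.29 CPM. Its intervals of 11.1 to 18.3 and 6.05 to 11.1 CPM overlapped only at their ends. Mir3099 lies in an intron of Usp29, a paternally expressed gene of the imprinted Peg3 domain, and had 26 and 25 reads, at 5.74 and 4.61 CPM. Mir3058, in an intron of the Nudix hydrolase gene Nudt4, had 23 and 24 reads, at 5.07 and 4.42 CPM.

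Mir3066 differed most between the libraries among the detected members. It lies in an intron of Nol10, the gene of a nucleolar protein, at chr12:17355392-17355474 on the plus strand. It had 10 reads in replicate 1 and 35 in replicate 2, at 2.21 and 6.45 CPM. Its intervals of 1.06 to 4.06 and 4.49 to 8.97 CPM did not overlap. Mir3097, in the intron of the G-protein signalling regulator Rgs12, had 17 and 21 reads, at 3.75 and 3.87 CPM. Mir3109 stood at 2.87 and 3.32 CPM in an intron of Anxa2, which encodes annexin A2, a calcium-dependent membrane-binding protein. Mir3081, in an intron of the Hedgehog co-receptor gene Boc, closed the list with 12 and 10 reads, at 2.65 and 1.84 CPM.

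A pair of the hosts of detected members encode proteins of the miRNA pathway itself. How many other hosts do was not counted, so this is a description only. Mir5113, at chr15:80940039-80940120 on the plus strand, overlaps an exon of a transcript of Tnrc6b. This GW182-family gene encodes a protein that binds Argonaute and carries out silencing. Mir5113 had 34 and 21 reads, at 7.50 and 3.87 CPM. Mir3064, at chr11:106782693-106782759 on the minus strand, lies in Ddx5, which encodes an RNA helicase that works with Drosha. It had 13 and 21 reads, at 2.87 and 3.87 CPM. Mir5113 was read more often in replicate 1, and for Mir3064 the intervals of the libraries overlapped. Further detected members overlapping an exon of a host transcript were Mir3061 in Ppp2ca, Mir3057 in Apba3 and Mir5101 in Syne2. Ppp2ca encodes the catalytic subunit of protein phosphatase 2A and Syne2 a nuclear envelope protein. Mir3061 stood at 5.07 and 6.63 CPM, Mir3057 at 2.87 and 3.69, and Mir5101 at 3.09 and 2.58.

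**Figure D3:**
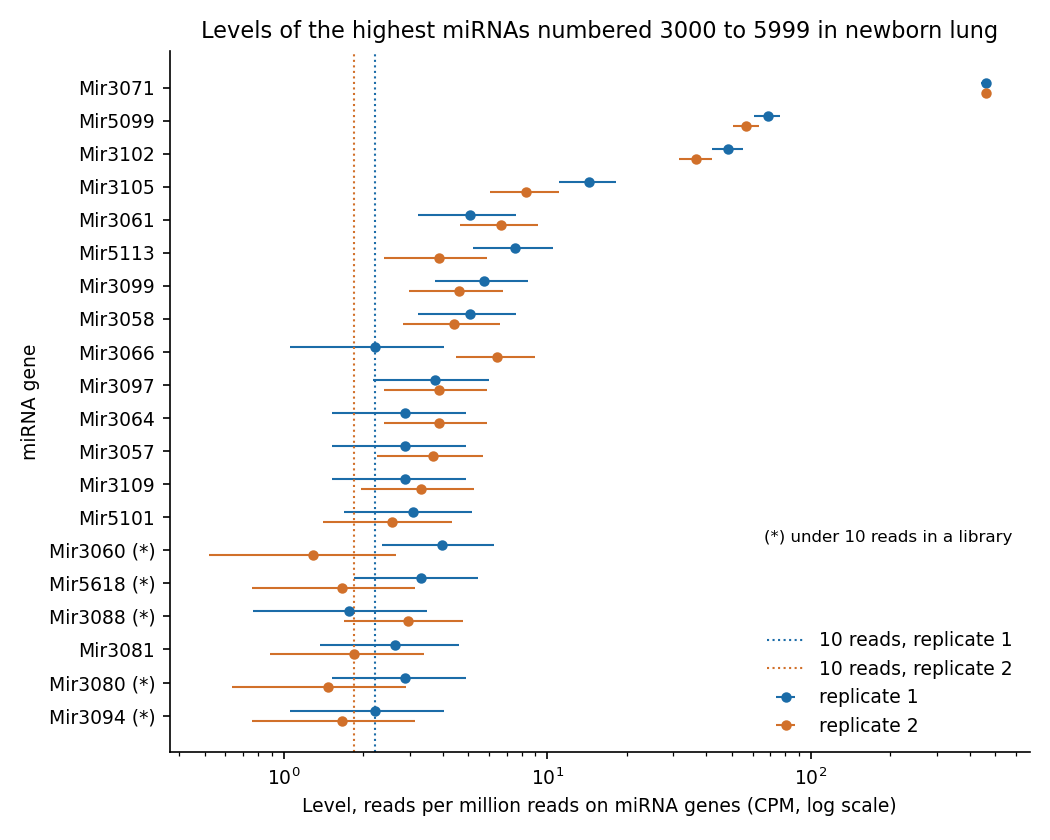
Level (CPM, log scale, horizontal axis) of the 15 detected members and the 5 next highest, marked with an asterisk, in replicates 1 and 2, with exact 95% intervals for counting error. Dotted lines mark 10 reads in each library. The values of Mir3071, Mir5099, Mir3102 and Mir3105 stand apart in order, though in replicate 2 the intervals of Mir3105 and Mir3061 overlap. Below them the libraries of neighbouring genes overlap.

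The order of levels was clearest at the top. Among the 15 detected members, the first 4 steps, from Mir3071 to Mir5099, Mir3102, Mir3105 and Mir3061, separated genes whose library values did not overlap. Some intervals did: in replicate 2 that of Mir3105, 6.05 to 11.1 CPM, overlapped that of Mir3061, 4.65 to 9.19. The interval of Mir5099 in replicate 2, 50.4 to 63.3, overlapped that of Mir3102 in replicate 1, 42.1 to 55.2, though not within either library. In the other 10 of 14 steps the libraries of the neighbours overlapped. The 11 detected members from Mir3061 on lay between 1.84 and 7.50 CPM in single libraries, with at most 36 reads in each. They ranked from 275th to 314th of all rows. Only 308 of the 1973 rows were detected, so these ranks lie near the lower end of the detected rows. Just outside the limit of 10 reads stood Mir3060 with 18 and 7 reads, Mir5618 with 15 and 9, Mir3088 with 8 and 16, Mir3080 with 13 and 8, and Mir3094 with 10 and 9. Their means ran from 1.93 to 2.63 CPM, a range that holds the mean of Mir3081, 2.25 CPM, which lay inside it. The other 59 members with a read had at most 18 reads over both libraries.

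The 2 libraries were compared per gene by a two-sided exact binomial test. It sets the share of a gene's reads in each library against that of all reads on miRNA genes. With a single library per pup, a difference between pups cannot be told apart from one between library preparations. The p-values were adjusted by Benjamini-Hochberg over the 375 rows with at least 10 reads in all. The test compares these 2 libraries and measures counting error only, so that it says nothing of a condition. Of 37 members tested, 6 passed at 0.05, or 16.2%, beside 42.4% of all rows tested. Depth differs between these sets: among rows with 10 to below 100 reads, 18 of 124 passed, or 14.5%, and 3 of 33 members did. With 100 to below 1000 reads, all 3 members, Mir5099, Mir3102 and Mir3105, passed, beside 26.2% of the 84 rows of that depth. Mir3071, the deepest, did not pass.

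Mir3066 was higher in replicate 2, with a log2 ratio of 1.5 (adjusted p = 0.0047, exact test). The other 5 were lower in replicate 2. Lower calls made up 23.2% of all rows tested and higher calls 19.2%. Of the 37 members tested, called or not, 25 stood lower in replicate 2, beside 199 of the 375 rows tested. Their median log2 ratio was -0.26, beside -0.03 over all rows tested, so single calls stand on a general offset of the members. Mir3060, in an intron of Rnf215, stood at -1.56 on the log2 scale (adjusted p = 0.023, exact test) and Mir3105 at -0.79 (adjusted p = 0.015, exact test). Mir3102 followed at -0.40 (adjusted p = 0.012, exact test). Mir5113 and Mir5099, at -0.94 and -0.27, had adjusted p-values of 0.048 and 0.046 in the exact test, close to the threshold. With TMM scaling these became 0.067 and 0.157, and both calls were lost. They were also lost with the size factors of DESeq2, at 0.065 and 0.125. Their adjusted p ranged over all alternatives from 0.042 to 0.086 for Mir5113 and from 0.040 to 0.157 for Mir5099.

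**Figure D4:**
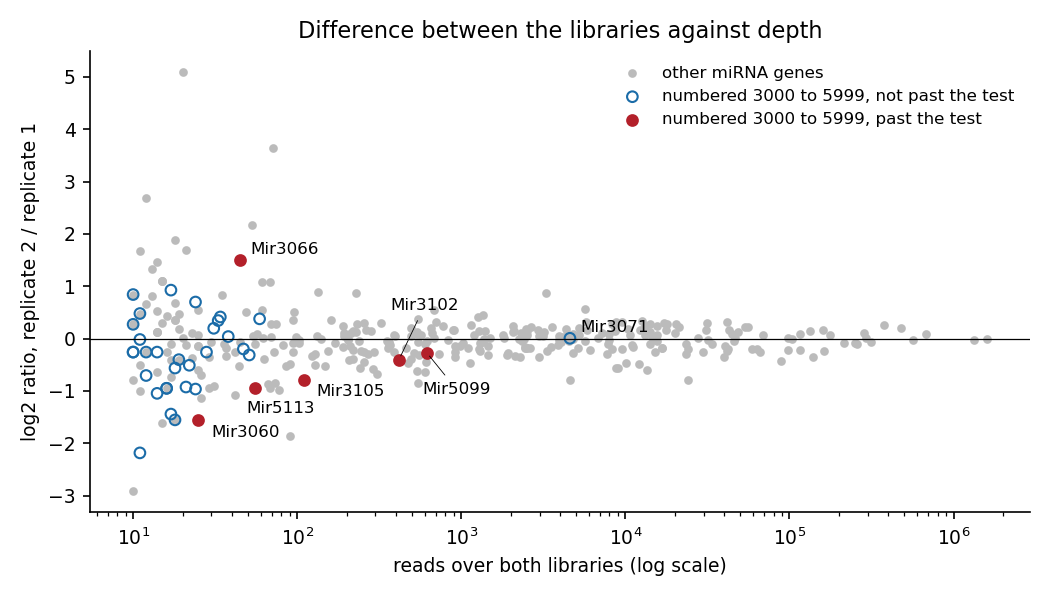
Log2 ratio of replicate 2 to replicate 1 (vertical axis) against reads over both libraries (log scale, horizontal axis) for the 375 rows tested. Of the 37 members, drawn as circles, the 6 filled ones passed the exact binomial test, with Mir3066 above 0 and the other 5 below.

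Position in the genome was the next feature that the choice of members had not used. A host gene on the same strand was found for 87 members, protein-coding for 83. Of 52 members in introns 7 were detected, of 35 overlapping an exon of any host transcript 7 were, and of 33 outside genes 1 was, Mir5099. No read was seen for 17, 7 and 17 of these, or 32.7%, 20% and 51.5%. No test was run on these counts, and the same shares were not computed for other miRNA rows, so they are a description only. The exonic 7 include the row named Mir3071, placed by its M21 strand. Overlap with an annotated snoRNA, snRNA or rRNA gene was found for 0 members. Overlap with nuclear tRNA genes was planned and not checked, so these data do not say whether members are tRNA fragments. Mir3071 makes up most of the exonic reads, which were 2488 and 2887 in replicates 1 and 2 with this row and 401 and 381 without it. An older miRNA within 10000 bases was found for 6 members, of which only the row named Mir3071, which may hold reads of Mir136, was detected. Among the others, Mir3093 lies 341 bases from Mir9-1 and Mir3078 lies 444 bases from Mir124a-1, both beside miRNAs of neural cells, and neither had a read.

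Strand gave no second signal at these loci. The own strand held 99.9% ± 0.035 of the reads on members. Reads on the opposite strand were seen for 4 members, never more than 2 in a library. For Mir3071 the strand is subject to the uncertainty stated above.

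Members with widely repeated sequence had hardly any counted reads. In 16 members a stretch of 20 bases of the hairpin also occurs, on either strand, in transcripts of at least 10 other genes. Of these, 13 had no read in either library and the others, Mir3473d, Mir3473g and Mir5128, had 1, 1 and 2 reads in all. They include all members named Mir3470, Mir3471, Mir3472 and Mir3473, and Mir5098, Mir5106, Mir5124a and Mir5128. Mir5098, in an intron of Rest, shares a stretch with 3041 other genes, Mir3470b with 2445 and Mir3473f, in an intron of Bcl2, with 1576. Among the 85 members with no such copy found, 26 had no read, or 30.6%, and among the 19 with a copy in 1 to 9 other genes 2 had none. The share with no read thus did not rise step by step with the number of copies found. Only annotated transcripts were searched, so copies elsewhere in the genome are missed and the 85 need not have a single position. Other miRNA rows were not searched in this way. Reads of repeated hairpins that map to several places have no gene row, so that the level of these 16 is not known from the counts. Their part in the pattern was not tested.

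**Figure D5:**
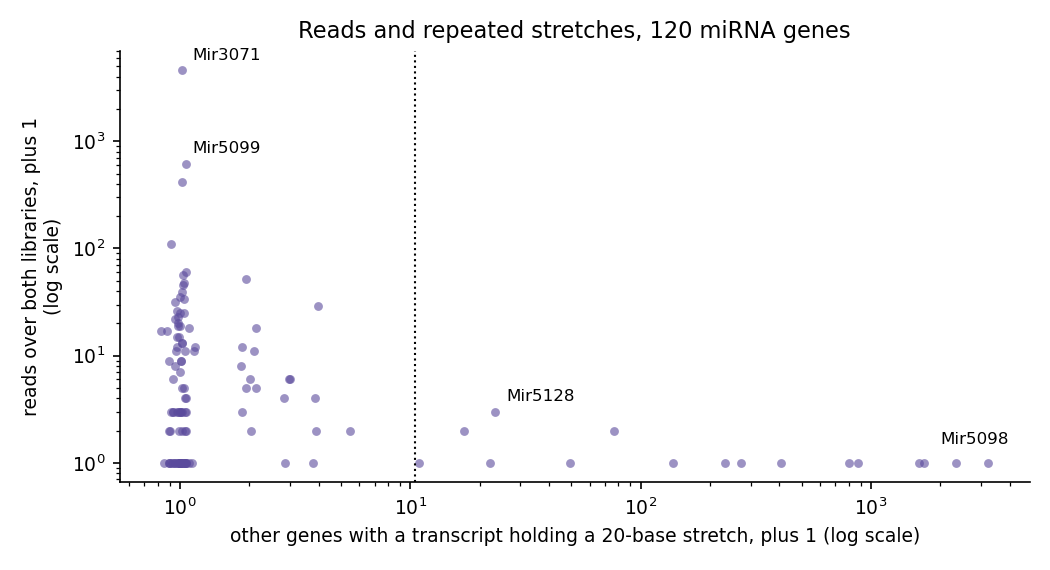
Reads over both libraries plus 1 (log scale, vertical axis) against the number of other genes with a transcript holding a 20-base stretch of the hairpin, plus 1 (log scale, horizontal axis), for 120 members, with points spread slightly sideways. Right of the dotted line, at 10 other genes and more, 16 members lie at 0 to 2 reads.

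The hairpins of detected and unread members overlapped in length, composition and predicted folding. The 15 detected hairpins had a median length of 84 bases and a median GC content of 52.3%, and the 41 without a read 78 bases and 53.6%. The minimum free energy predicted by RNAfold had a median of -0.44 kcal/mol per base in the detected hairpins, from -0.72 to -0.30. It was -0.42 in those with no read, from -0.77 to -0.27, and -0.46 in the 64 with fewer reads. The ranges overlap throughout, and these are descriptions with no test.

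By block of numbers, the detected members fell into a pair of groups. Numbers from 3000 to below 3400 gave 12 of 48 members detected and 6 with no read. Numbers from 5000 to below 5200 gave 3 of 33, namely Mir5099, Mir5113 and Mir5101, with 13 unread. None was detected among the 14 members from 3400 to below 3500, the 4 from 3500 to below 3900, the 6 from 3900 to below 5000 and the 15 from 5600 upward. Those 14 include all members named Mir3470, Mir3471, Mir3472 and Mir3473, whose repeated sequence leaves their level unknown from the counts. The other blocks without a detected member are small. Of all reads of the 120 members, 92.9% lay on the 15 detected ones, and without Mir3071 the share on the other 14 was 77.2%.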

How the data were processed

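Small RNA with a size range under 30 bases was sequenced from 2 lung libraries. The authors deposited whole-number read counts per miRNA gene with no normalization, on mm10 with GENCODE M4, per the deposited file descriptions. Which aligner and counting program were used is not given in the sources used here. The either-strand column equals the sum of both others in every gene row. The larger single-strand column, with 98.2% and 98.0% of the reads, was taken as the own strand. Totals, 4532902 and 5426081 reads, leave out rows without a gene, which hold 45.2% and 47.8%.

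Symbols and positions came from GENCODE M21 on GRCm38, which matched 1894 identifiers and missed 79. Stretches of 20 bases were searched in the M21 transcripts, leaving out overlapping genes. Hairpins were folded with RNAfold of ViennaRNA 2.7.2. RefSeq lists 17 further hairpins in the number range that were not analysed here. CPM, exact intervals and the exact binomial test, tested on simulated data, were computed in Python 3.11.15 with scipy 1.17.1, and log2 ratios with 0.5 reads added to each count. TMM factors came from edgeR 4.0.16 and size factors from DESeq2 1.42.0. The quasi-likelihood test of edgeR was not run, as a comparison of single libraries has no replicates. An exact sign-flip test on 2 libraries cannot give a p below 0.5.

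Named by rule were detected members, the 5 just under, those past the binomial test, the nearest older miRNA within 10000 bases of a detected member, the 5 rows nearest in level to the highest, and the marker lists. All other miRNAs in the text were named after their values were seen. The soft-masked share of hairpins was planned and not computed, since no genome sequence was used. Members and lists were chosen with earlier results of these data known.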

Additional observations from a re-analysis of the deposited data

How the results depend on the processing

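The 15 detected members became 33 with at least 5 reads in each library, 8 with at least 20 and 60 with any read. Leaving out 1 replicate gave 17 to 24 members, with 24 when replicate 2 was left out. Leaving out members with a stretch in any other gene, an alternative chosen after seeing the data, gave 13. The summed level of 669 CPM became 208 without the highest member, Mir3071, 771 with the left-out rows put back, and 358 when scaled to all reads. It was 649 to 689 with 1 replicate left out, and 669 with TMM scaling and with DESeq2's size factors. The median of the detected members, 4.75 CPM, became 2.54 when scaled to all reads and lay from 4.42 to 5.07 with 1 replicate left out. The own-strand share, 99.9%, was 99.8% without Mir3071, also added after seeing the data, and 99.89% to 99.94% with 1 replicate left out. The 6 members past the exact test became 4 with TMM scaling and with DESeq2's size factors, which both lost Mir5099 and Mir5113. With no filter on reads 5 passed, with Mir5099 and Mir5113 lost and Mir3103, with 6 and 0 reads, gained over 667 rows adjusted together. Among values of single members, 15 moved by more than 1 SD, 6 lost the threshold and 99 did neither. Leaving out a replicate leaves this test without a comparison and was not run. No paired analysis was possible because the samples form 1 group. Depth limits every statement on the 11 detected members under 100 reads over both libraries.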
